A study of Mus musculus with 4 samples.

Results

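The genes described here encode the receptors that hold a cell to a basement membrane and the main proteins of that membrane which those receptors bind. They were chosen by a rule on gene symbols, with earlier results of these data known. From the deposited counts table it took the integrin alpha genes whose number or letter is a digit, v, e or l, and the integrin beta genes. It also took the laminin chains, the syndecans and the nidogens, together with Hspg2, Agrn, Dag1, Cd44, Cd151, Ddr1 and Ddr2. The rule found 47 of the 56350 genes in the table, of which 32 are receptor genes and 15 are ligand genes. RNA came from EO771 cells, a mammary carcinoma line from C57BL/6 mice, grown in serum and exposed, or not, to 1.0 µM BML-210 for 48 h. BML-210 is an inhibitor of histone deacetylases, the enzymes that take acetyl groups off histones. There are 2 untreated total RNA libraries, which the treatment text also calls a vehicle control, and 2 labelled BML-210. A log2 change is that of the BML-210 group over the untreated group throughout, with the receptors described before the ligands.

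A basement membrane is a thin sheet of matrix built on a network of laminin trimers, each of 1 alpha, 1 beta and 1 gamma chain, and a network of collagen IV, which nidogens and the proteoglycans perlecan and agrin tie together. Integrins are heterodimers of 1 alpha and 1 beta chain that span the cell membrane, bind matrix outside and join the actin cytoskeleton through talin, kindlin and other adaptors inside. Syndecans, dystroglycan, CD44 and the discoidin domain receptors bind matrix without being integrins, and the tetraspanin CD151 binds laminin-binding integrins in the membrane. In mammary epithelium, laminin-binding integrins anchor cells to the basement membrane, and tumour cells often change the set of integrins they make.

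Gene counts summed to between 13167893 and 16534667 per library, and the members together took 0.776% to 0.784% of them. Levels are given as CPM, counts scaled to the library size, and a gene is said to have risen or fallen where its Benjamini-Hochberg adjusted p over all 14455 tested genes was under 0.05 in edgeR's quasi-likelihood test. Nothing in the labels says that the libraries of a group came from separate cultures, so the p-values measure only the spread between these libraries, which may be technical. The directions rest on the group labels: the library codes carry a D for untreated libraries and a V for those labelled BML-210, and no source here says what the letters mean. Were the labels exchanged between the groups, every fall below would be a rise and every rise a fall. Of the 7 epithelial markers looked at, 2 had enough counts to be tested, and Krt18 and Epcam had 3 and 7 counts over all 4 libraries, against 2228 for Krt8, which fell from 46.4 ± 3.95 to 30.7 ± 3.34 CPM (SD, n = 2; log2 change -0.59, adjusted p = 3.50e-09 by edgeR). Of 6 fibroblast and pericyte markers, 3 were tested: Pdgfra fell (-0.68 on the log2 scale), Pdgfrb (0.57) and Acta2 (1.07) rose, and the list summed to 230 to 233 CPM and 219 to 221 CPM in the untreated and BML-210 groups, with Lum and Thy1 at 0. The part of these changes in the results below was not tested.

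Of the 47 genes, 36 had enough counts to be tested, and the called integrins among them all lay in 1 direction while the ligands did not. Of 15 tested integrin genes, 10 fell and 0 rose, where 46.4% of all tested genes were called, 23.5% lower and 22.9% higher. Of 9 tested receptors that are not integrins, 4 rose and 2 fell, and of 12 tested ligand genes, 3 rose and 3 fell. Among those 12, Lamc3, which fell, and Lama1 reached the count minimum only in the untreated group, where they were higher; among the 10 ligand genes with a mean of at least 1 CPM, which leaves both out, 3 rose and 2 fell. The steepest falls among members with a mean of at least 5 CPM were those of the integrin genes Itgb3 (1.96-fold lower), Itga7 (1.89-fold), Itgb7 (1.88-fold) and Itga3 (1.68-fold), and the steepest rise was that of Ddr2, a collagen receptor kinase (1.84-fold higher). In all, 22 of the 36 were called, 15 lower and 7 higher. The same count was 12 lower and 4 higher among 24 receptor genes. No integrin gene rose at an unadjusted p under 0.05 either (0 genes, against 11 lower), nor in DESeq2, limma-voom or edgeR's likelihood ratio test (0 genes each), but 1 did when BML-210 replicate 1 was left out, the collagen-binding integrin gene Itga1. The median log2 change was -0.29 over the tested integrins, -0.16 over the receptors and -0.05 over the ligands, beside -0.0025 over all tested genes. The ligand median changed sign with the library or filter: it was 0.01 without untreated replicate 2, 0.03 with only genes of a mean of at least 1 CPM and -0.15 without untreated replicate 1. The groups did not overlap for 28 of the 36 members, 19 lower and 9 higher, where 71.3% of all tested genes had groups that did not overlap (36.1% lower, 35.2% higher). In RNA from a bulk culture, fewer cells of a type and less RNA per cell cannot be told apart.

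**Figure D1:**
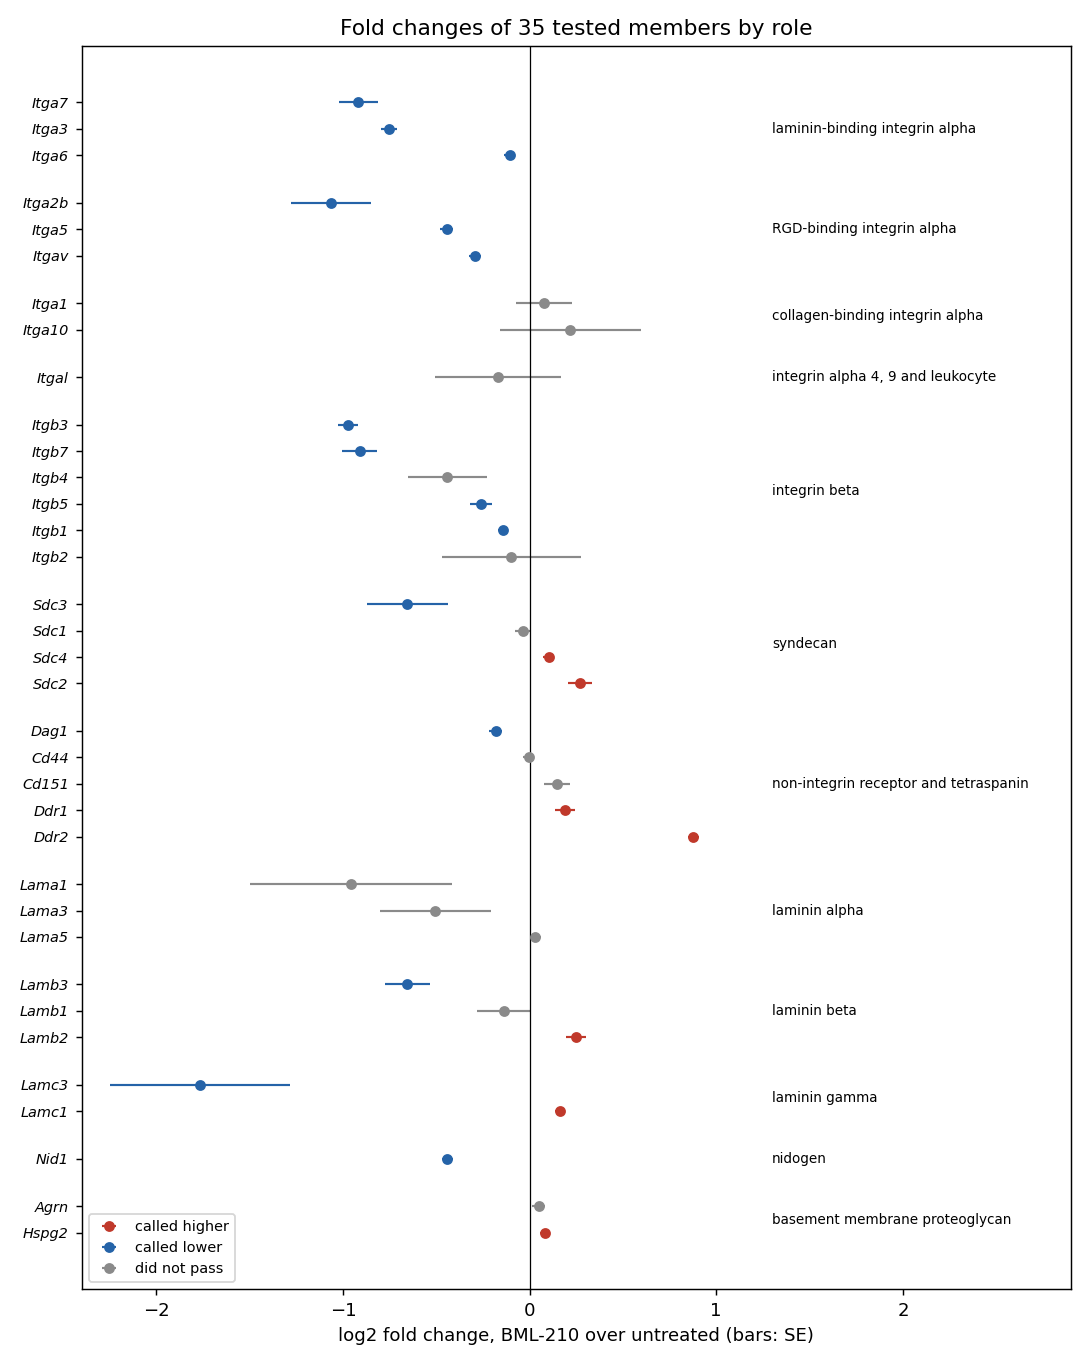
Log2 fold change (x axis, libraries labelled BML-210 over untreated, bars are the SE) of 35 tested members, grouped by role. The called integrin points lie left of 0, down to -1.07 for Itga2b, while Ddr2 stands alone to the right at 0.88.

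The genes of the integrin alpha chains that bind laminin all fell. Itga3, which encodes the alpha 3 chain of the main laminin receptor of many epithelia (ENSMUSG00000001507.16, mm10 chromosome 11, 95044474 to 95076801, minus strand), was at 161 and 162 CPM in the libraries labelled untreated and at 92.8 and 99.3 CPM in those labelled BML-210. Its log2 change was -0.75 ± 0.04 (SE; adjusted p = 9.00e-22 by edgeR), and both libraries labelled BML-210 lay far below both others. Itga7, the alpha 7 chain known from muscle (ENSMUSG00000025348.9, chromosome 10, 128933818 to 128958282), was at 24.9 and 27.8 CPM against 13.3 and 14.5 CPM. It was far less abundant than Itga3 and its log2 change was -0.92 ± 0.11 (SE; adjusted p = 9.20e-11 by edgeR). Itga6, the alpha 6 chain that pairs with beta 1 or beta 4, was the most abundant of the 3 per kilobase of exonic length, and it barely moved: 368 and 366 CPM became 341 and 341 CPM, a log2 change of -0.11 ± 0.03 (SE; adjusted p = 0.00348 by edgeR). The call of Itga6 was lost in DESeq2 (adjusted p = 0.0567, with a range of 0.000230 to 0.0567 over 16 alternatives).

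Integrin chains that bind the RGD motif of matrix proteins such as fibronectin and vitronectin fell as well, in 3 of 3 tested cases. Itga5, whose product forms the fibronectin receptor with beta 1 (ENSMUSG00000000555.8, chromosome 15, 103344286 to 103366763), was at 293 and 300 CPM in the libraries labelled untreated. It was at 213 and 222 CPM in those labelled BML-210, a log2 change of -0.44 ± 0.04 (SE; adjusted p = 1.37e-16 by edgeR). Per kilobase, it was the most abundant alpha chain in every library. Itgav, the alpha chain of the vitronectin receptors, went from 355 ± 0.838 to 290 ± 0.583 CPM (SD, n = 2; log2 change -0.29, adjusted p = 1.59e-11 by edgeR). Itga2b, known as the alpha chain of the platelet fibrinogen receptor, went from a low 6.46 ± 0.0724 to 3.08 ± 0.495 CPM (SD, n = 2), a log2 change of -1.07 ± 0.21 (SE; adjusted p = 3.26e-05 by edgeR). The 4 platelet and megakaryocyte markers were not among the tested genes: they summed to 0 to 0.0728 CPM in the libraries labelled untreated and to 0.0714 to 0.0757 CPM in the others, with Pf4 and Gp1ba at 0 in every library. Itga8, the last RGD-binding alpha chain, had 10 counts over all libraries and was not tested.

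Among collagen-binding and leukocyte alpha chains, no tested gene passed, and most were near the limit of detection. Itga1, which pairs with beta 1 as a collagen IV receptor, was at 29.5 and 29.1 CPM against 25.1 and 36.6 CPM, so the libraries labelled BML-210 lay on either side of the others. Its log2 change was 0.08 ± 0.15 (SE; adjusted p = 0.717 by edgeR). Without BML-210 replicate 1 it was 0.32 and passed (adjusted p = 0.00602, with a range of 0.00602 to 0.882 over 16 alternatives). Itga10 (0.22) and the leukocyte chain Itgal (-0.17) did not pass, the latter at 1.95 and 1.68 CPM against 1.82 and 1.43 CPM. Itga2, which lies 21 kb from Itga1 on chromosome 13, had 8 counts over all 4 libraries, Itga11 had 11, Itga9 had 13, Itgae had 17 and Itga4 had 3.

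All 6 tested beta chains had a log2 change below 0, and 4 of them passed. Itgb1, the partner of most alpha chains listed here (ENSMUSG00000025809.15, chromosome 8, 128685654 to 128733200), stood highest per kilobase among the 47 genes, at 1175 and 1131 CPM against 1054 and 1036 CPM. It fell by 0.14 on the log2 scale (SE 0.03, adjusted p = 1.57e-05 by edgeR), a small change that the high count makes measurable. Itgb3, the beta chain of a vitronectin receptor (ENSMUSG00000020689.4, chromosome 11, 104608000 to 104670476), was at 104 and 108 CPM against 53.8 and 53.8 CPM, a log2 change of -0.97 ± 0.05 (SE; adjusted p = 4.60e-23 by edgeR). The libraries of each group lay close together. Itgb7, known from lymphocytes that home to the gut (ENSMUSG00000001281.10, chromosome 15, 102215995 to 102231944), was at 31.6 and 33.3 CPM against 17.03 and 17.41 CPM, a log2 change of -0.91 ± 0.09 (SE; adjusted p = 2.13e-12 by edgeR). The known partners of its product, the chains of Itga4 and Itgae, had the 3 and 17 counts given above. The 5 T lymphocyte markers summed to 0.304 to 0.437 CPM and 0.143 to 0.303 CPM in the libraries labelled untreated and BML-210, and none had enough counts to be tested. Of 10 macrophage and leukocyte markers, 5 were tested, and Cd68 and Adgre1 were lower, the latter reaching the count minimum only in the untreated group. With Cd68 the list summed to 169 to 172 CPM and 35.8 to 37.4 CPM in the untreated and BML-210 groups. Without Cd68, which alone was at 162 against 31.1 CPM, it summed to 7.36 to 9.68 CPM and 5.30 to 5.71 CPM, and its part in the fall of Itgb7 was not tested. Itgb5 fell by 0.26 on the log2 scale, from 63.0 ± 0.455 to 52.7 ± 0.243 CPM (SD, n = 2; adjusted p = 0.000245 by edgeR). Itgb4, which pairs with alpha 6 in hemidesmosomes, went from 5.34 to 3.94 CPM and did not pass (log2 change -0.44, adjusted p = 0.0819 by edgeR), and neither did the leukocyte chain Itgb2 (-0.10). Itgb6 and Itgb8 had 5 counts each over all libraries.

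**Figure D2:**
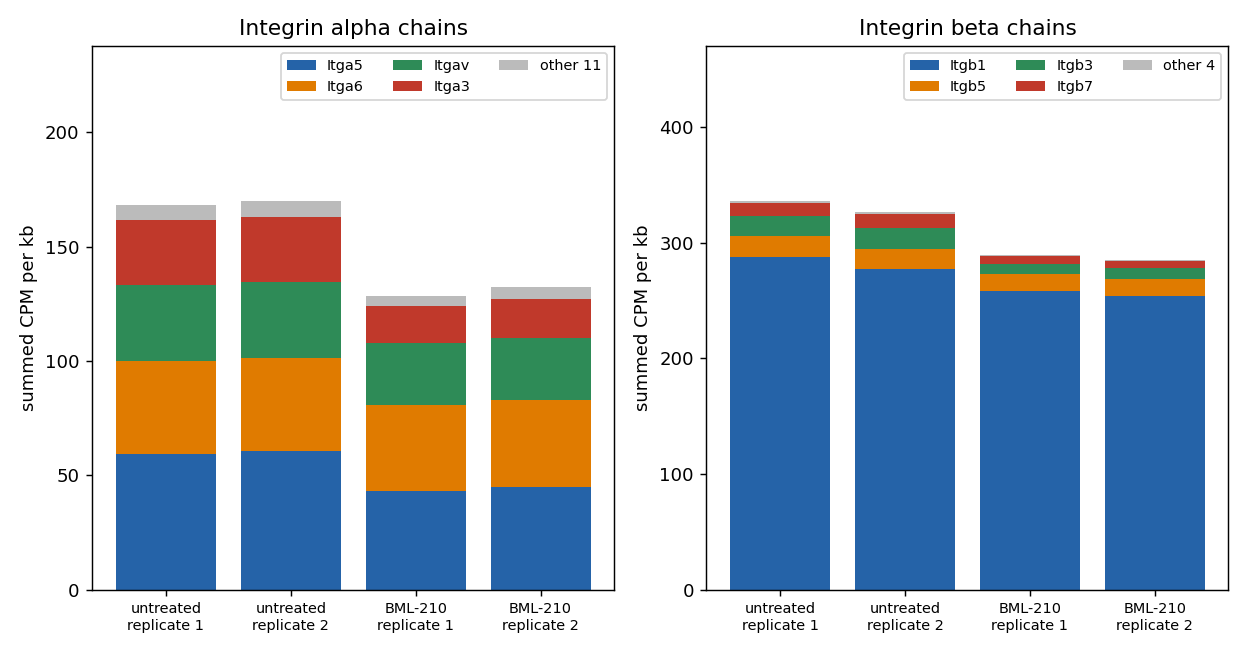
Summed level (y axis, CPM per kilobase of exonic length, from 0) of the 15 integrin alpha genes (left) and the 8 integrin beta genes (right) in each library, with the 4 most abundant genes of each family in colour. The alpha sum is 168 and 170 in the libraries labelled untreated and 128 and 132 in those labelled BML-210, and Itgb1 makes up most of the beta sum.

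The falls changed how the integrin RNA was made up. Summed per kilobase, alpha chain RNA went from 169 ± 1.27 to 130 ± 2.84 CPM per kilobase (SD, n = 2), a ratio of 0.772. The beta chains together went from 331 ± 6.76 to 287 ± 3.02 CPM per kilobase, and from 48.6 ± 0.884 to 31.2 ± 0.0697 when Itgb1 was left out, a ratio of 0.642. The share of Itga6 among the alpha chains was 24.1% and 29.0% in the untreated and BML-210 means, while that of Itga3 was 16.8% and 12.9%. Itga5 kept the largest share (35.5% and 33.8%), and Itgb1 held 85.3% and 89.1% of the beta chain sum. These sums are descriptions over 2 libraries a group and were not tested.

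The promoter sequences of 3 fallen integrin genes are shown because the genes moved the same way, and they are the called integrin genes with the largest falls whose RefSeq start site lies within 100 bases of the start in the counts table. Each runs from 250 bases before to 50 bases after the start site, 5′ to 3′ on the gene's strand, from RefSeq's GRCm38.p6 annotation, and capitals mark the GC box GGGCGG on either strand. All 3 genes are on the minus strand, at chr11:95076665-95076964 for Itga3, chr15:103366742-103367041 for Itga5 and chr15:102231886-102232185 for Itgb7.
Itga3: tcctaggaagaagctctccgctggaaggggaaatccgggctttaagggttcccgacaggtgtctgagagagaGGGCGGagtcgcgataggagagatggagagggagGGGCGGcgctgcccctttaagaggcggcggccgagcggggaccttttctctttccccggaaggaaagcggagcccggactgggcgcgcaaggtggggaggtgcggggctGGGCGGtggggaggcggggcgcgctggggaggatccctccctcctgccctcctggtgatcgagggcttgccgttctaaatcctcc
Itga5: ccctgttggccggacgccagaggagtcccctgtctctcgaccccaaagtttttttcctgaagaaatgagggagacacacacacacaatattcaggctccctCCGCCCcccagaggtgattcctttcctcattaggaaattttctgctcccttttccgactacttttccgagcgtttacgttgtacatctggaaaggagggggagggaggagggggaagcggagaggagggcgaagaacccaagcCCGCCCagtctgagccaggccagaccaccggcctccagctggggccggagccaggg
Itgb7: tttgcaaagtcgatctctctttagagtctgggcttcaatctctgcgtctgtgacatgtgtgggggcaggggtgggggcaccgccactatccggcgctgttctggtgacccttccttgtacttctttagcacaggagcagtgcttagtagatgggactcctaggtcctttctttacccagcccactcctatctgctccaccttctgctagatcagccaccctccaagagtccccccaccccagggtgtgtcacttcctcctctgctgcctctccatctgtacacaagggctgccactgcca

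The Itga3 window holds 3 GC boxes and that of Itga5 holds 2, while the letters do not occur in that of Itgb7. A promoter was matched for 32 of the 47 members, but for 8 of these the RefSeq start lies more than 100 bases from the start in the counts table, up to 105002 bases for Itga9, so these windows need not be the promoters in use. The GC box stood in 5 of the 7 matched promoters of fallen integrin genes, in 2 of the 9 of the other integrin genes and in 6 of the 8 of the ligand genes, against 35.6% of all 32817 promoters of that length in the table. Of those 9 other integrin genes, 7 had too few counts to be tested. Itgb3, Itga7 and Itga6, which also fell, had no matched promoter. Among the 7 matched, the start of Itga2b lay 239 bases from the start in the counts table. The GC box also stood in 6 of 8 promoters of members that were tested and did not pass and in 3 of 5 of members that rose. The AP-1 motif TGANTCA was in 0 of the 7 and in 7.81% of all promoters. The MEF2 consensus motif, looked for because BML-210 also blocks the binding of class IIa histone deacetylases to MEF2 factors, was in 0 of the 32 and in 0.558% of all promoters. Each motif was searched on its own on both strands, so matches of different motifs could overlap. The median GC content was 65.7% in the 7 promoters of fallen integrin genes, 59.0% in those of the other 9 integrin genes and 52.7% in all promoters.

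Receptors other than integrins moved both ways, and the largest change was a rise. Ddr2, a receptor kinase that binds fibrillar collagen (ENSMUSG00000026674.9, chromosome 1, 169972307 to 170110762), was at 273 and 271 CPM in the libraries labelled untreated and at 504 and 497 CPM in those labelled BML-210. Its log2 change was 0.88 ± 0.03 (SE; adjusted p = 5.00e-32 by edgeR), and its lowest library labelled BML-210 was far above both others. Ddr1, the related kinase of epithelial cells, rose by 0.19 on the log2 scale, from 67.7 ± 4.64 to 77.1 ± 1.24 CPM (SD, n = 2; adjusted p = 0.00378 by edgeR). The Ddr1 call was lost without untreated replicate 1 (adjusted p = 0.182, with a range of 0.000671 to 0.182 over 16 alternatives) and in DESeq2 (0.0819). Dag1, the precursor of both dystroglycan chains, of which the alpha chain binds laminin, fell from 259 ± 2.99 to 229 ± 3.10 CPM (SD, n = 2; log2 change -0.18, adjusted p = 1.62e-05 by edgeR). Cd44, the hyaluronan receptor, was at 473 and 460 CPM against 472 and 460 CPM, and its groups overlapped (adjusted p = 0.929 by edgeR). Cd151 was at 0.15 on the log2 scale and did not pass (adjusted p = 0.0741 by edgeR), though it did without BML-210 replicate 1 (adjusted p = 0.00586, with a range of 0.00586 to 0.904 over 16 alternatives) and with library size alone as the scaling (0.0462).

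The syndecans, transmembrane proteoglycans that bind laminin and growth factors through heparan sulfate, included 2 that rose and 1 that fell. Sdc4, a syndecan of focal adhesions and the second most abundant member per kilobase, was at 604 and 589 CPM against 636 and 645 CPM. Its rise was small, 0.10 ± 0.03 on the log2 scale (SE; adjusted p = 0.00198 by edgeR), and was not called without BML-210 replicate 2 (adjusted p = 0.0681, with a range of 0.000181 to 0.0681 over 16 alternatives). Sdc2 rose from 41.7 ± 0.105 to 50.4 ± 1.37 CPM (SD, n = 2; log2 change 0.27, adjusted p = 0.000559 by edgeR). Sdc1, the main syndecan of many epithelia, had a log2 change of -0.04 and did not pass (adjusted p = 0.486 by edgeR). Sdc3, known from nerve and muscle, fell by 0.65 on the log2 scale from a low 5.96 ± 1.36 to 3.74 ± 0.468 CPM (SD, n = 2; adjusted p = 0.00965 by edgeR). That call was lost without untreated replicate 2 (adjusted p = 0.202, with a range of 0.00109 to 0.202 over 16 alternatives), without BML-210 replicate 1 (0.0851) and in DESeq2 (0.112).

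**Figure D3:**
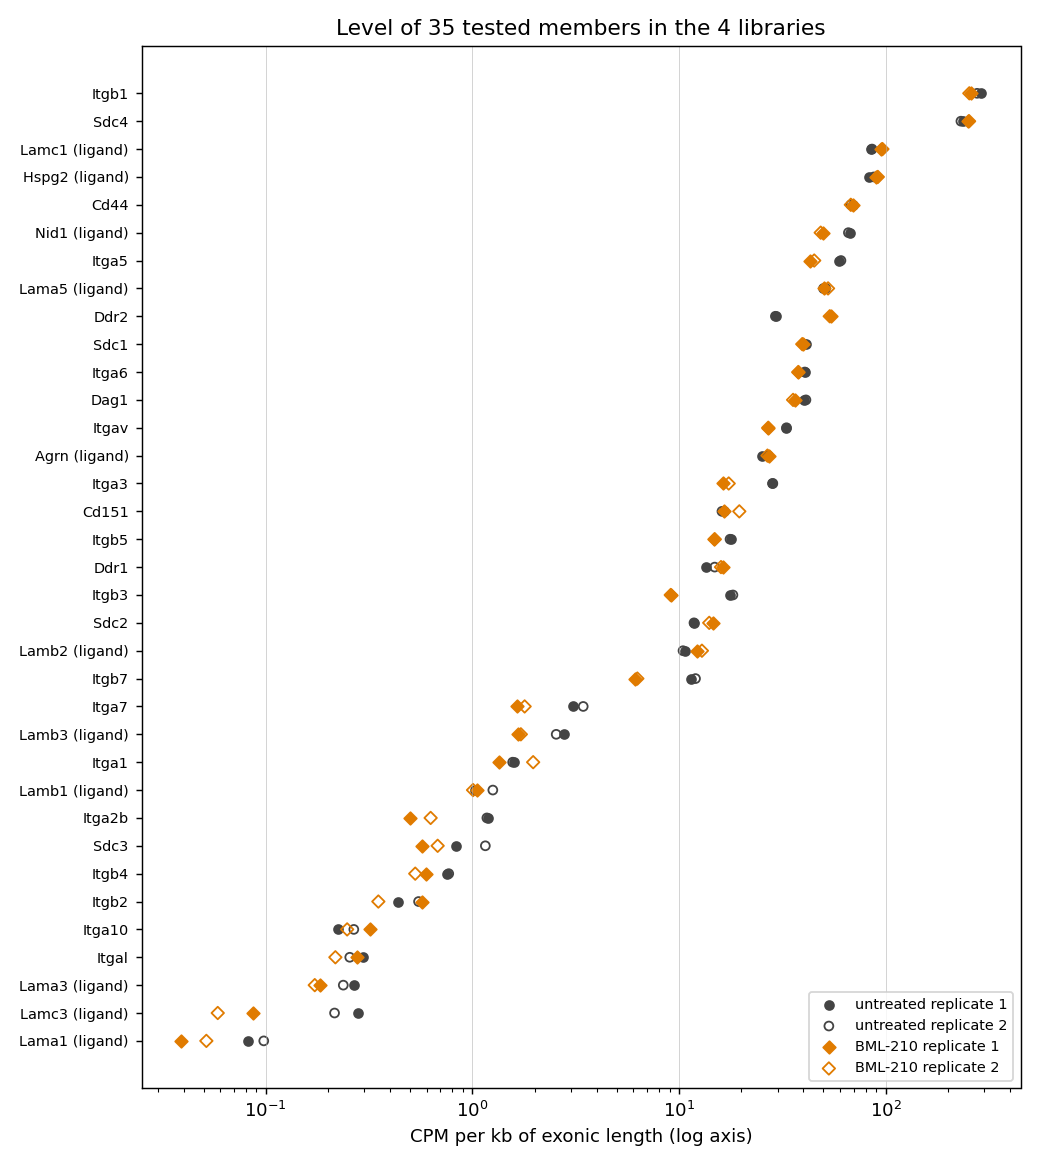
Level (x axis, CPM per kilobase of exonic length, log axis) of 35 tested members in the 4 libraries, ordered by mean level. Itgb1 and Sdc4 stand at the top, near 269 and 243, and the Ddr2, Itgb3, Itga3 and Itga5 points of the 2 groups are apart.

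On the ligand side, the cells' laminin RNA was mostly that of 3 chains, and none of these fell. Lama5, the alpha 5 chain, was at 565 and 584 CPM against 574 and 599 CPM, with overlapping groups (log2 change 0.03, adjusted p = 0.412 by edgeR), and per kilobase it made up 99.3% and 99.5% of the laminin alpha sum. Lamc1, the gamma 1 chain of most laminins (ENSMUSG00000026478.14, chromosome 1, 153218922 to 153332786), rose slightly, from 705 and 711 CPM to 786 and 798 CPM (log2 change 0.16 ± 0.03, SE; adjusted p = 1.19e-06 by edgeR). Lamb2, the beta 2 chain, rose from 65.2 and 63.6 CPM to 74.6 and 78.5 CPM (log2 change 0.25 ± 0.06, SE; adjusted p = 0.000151 by edgeR). It made up 73.6% of the laminin beta sum per kilobase in the libraries labelled untreated and 82.2% in the others. The beta chains together were the scarcest of the 3 kinds, at 14.4 ± 0.175 and 15.3 ± 0.465 CPM per kilobase (SD, n = 2), beside 88.9 ± 0.296 and 99.1 ± 1.02 for the gamma chains and 50.8 ± 1.15 and 51.7 ± 1.60 for the alpha chains. Lamb1 (-0.14) did not pass.

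Both laminin genes that fell were among the less abundant chains. Lamb3, a laminin beta chain known from the epidermis (ENSMUSG00000026639.18, chromosome 1, 193207699 to 193343878), was at 18.3 and 16.8 CPM against 10.98 and 11.35 CPM. Its log2 change was -0.65 ± 0.12 (SE; adjusted p = 8.88e-06 by edgeR), with no overlap between groups. Lama3, the alpha chain that pairs with it there, went from 2.70 ± 0.220 to 1.91 ± 0.0797 CPM (SD, n = 2; log2 change -0.51, adjusted p = 0.163 by edgeR) and did not pass. Lamc3 had 28 and 18 counts in the libraries labelled untreated and 7 and 5 in the others, a log2 change of -1.77 ± 0.48 (SE; adjusted p = 0.00175 by edgeR). That call was lost without untreated replicate 1 (adjusted p = 0.0810, with a range of 0.000386 to 0.0810 over its 15 alternatives) and in DESeq2 (0.0534). Lama1 had 13 and 13 counts against 5 and 7 and did not pass (log2 change -0.96, adjusted p = 0.146 by edgeR). Lama2 and Lama4 had 13 and 3 counts over all libraries and were not tested.

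Of the proteins that tie the networks together, nidogen-1 stood apart. Nid1, which links laminin gamma 1 to collagen IV (ENSMUSG00000005397.8, chromosome 13, 13437551 to 13512269), was at 468 and 458 CPM against 346 and 337 CPM. Its log2 change was -0.44 ± 0.03 (SE; adjusted p = 1.20e-18 by edgeR), a fall while Lamc1, its binding partner, rose. Its relative Nid2 had 0 and 0 counts in the libraries labelled untreated and 2 and 2 in the others and was not tested. Hspg2, the gene of perlecan and the member with the most counts (ENSMUSG00000028763.18, chromosome 4, 137468769 to 137570630), was at 1230 and 1292 CPM against 1317 and 1351 CPM. It passed with a log2 change of 0.08 ± 0.03 (SE; adjusted p = 0.0123 by edgeR), but its call was lost without untreated replicate 1 (adjusted p = 0.145), without BML-210 replicate 1 (0.0538), without BML-210 replicate 2 (0.242) and in 4 further alternatives, in a range of 1.32e-05 to 0.242 over 16. Agrn, the other heparan sulfate proteoglycan, had a log2 change of 0.05 and did not pass (adjusted p = 0.270 by edgeR), although it did without untreated replicate 2 (adjusted p = 0.0358, with a range of 0.0358 to 0.956 over 16 alternatives).

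Receptors and ligands can be set side by side as sums per kilobase. Ligand RNA summed to 332 ± 4.52 CPM per kilobase in the libraries labelled untreated and to 333 ± 3.37 in those labelled BML-210 (SD, n = 2), a ratio of 1.00. Integrin RNA summed to 499.9 ± 5.49 and 418 ± 0.181, a ratio of 0.835, and the other receptors to 457 ± 4.90 and 499 ± 1.76, a ratio of 1.09. The sum over all receptors was 957 ± 10.4 and 916 ± 1.58 CPM per kilobase (SD, n = 2), a ratio of 0.958. A few abundant genes weigh most in these sums. Among the other receptors, Ddr2 rose from 29.4 to 54.0 CPM per kilobase and Sdc4 from 234 to 251, while Dag1 fell from 40.8 to 36.0. Among the ligands, Nid1 fell from 66.7 to 49.2, while Lamc1 rose from 85.6 to 95.8 and Hspg2 from 85.6 to 90.5. The sums were not tested.

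**Figure D4:**
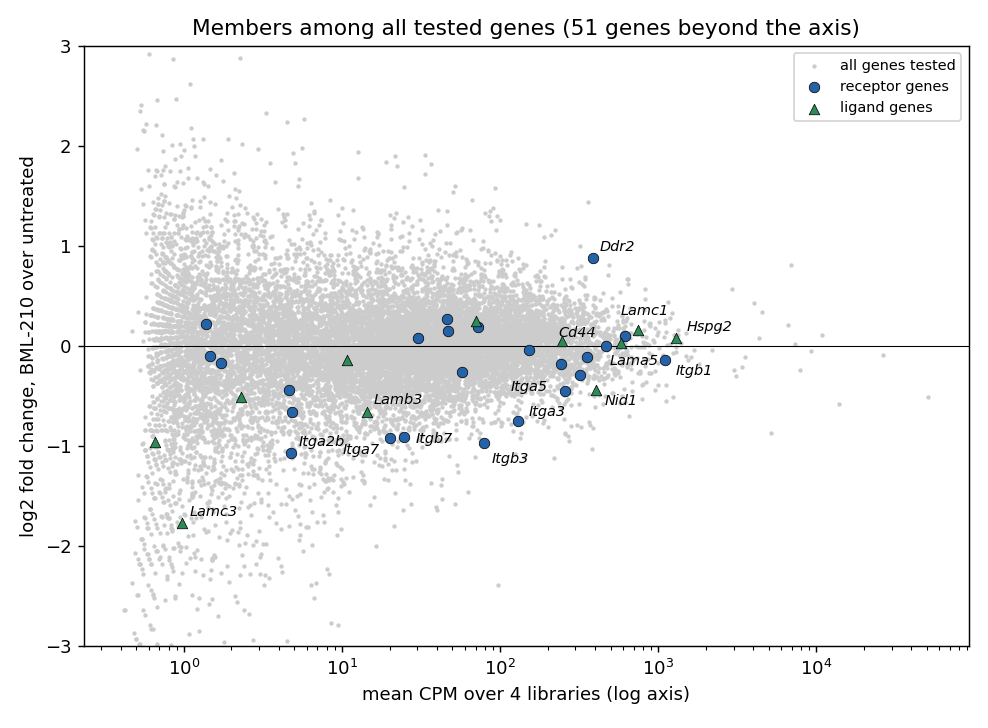
Log2 fold change (y axis, libraries labelled BML-210 over untreated) against mean CPM over the 4 libraries (x axis, log axis) for all 14455 tested genes in grey, receptor genes as circles and ligand genes as triangles; 51 genes lie beyond the y axis limits of -3 and 3. The abundant ligands Hspg2, Lamc1 and Lama5 lie close to 0, Nid1 and most named integrins lie below it, and Ddr2 lies above.

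Inside the cell, integrins work through adaptors such as talin, vinculin and the parvins. Of 41 genes of integrin activation and focal adhesions, 40 were tested, 12 rose and 9 fell (median log2 change 0.01, beside -0.0025 over all tested genes). In DESeq2 7 rose. The share called was 52.5%, near the 46.4% of all tested genes. The 4 with the smallest adjusted p all fell: the parvin gene Parvb from 356 to 204 CPM (log2 change -0.80), vinculin (Vcl, -0.46), the PINCH gene Lims2 (-0.93) and the actin crosslinker gene Actn4 (-0.32). Parvins and PINCH proteins form a complex with the kinase-like protein ILK. Named after its values were seen, the other parvin gene Parva rose from 46.6 ± 2.16 to 70.1 ± 2.63 CPM (SD, n = 2; log2 change 0.59, adjusted p = 2.37e-12 by edgeR). Also named in that way, Ilk was at 0.10 and passed narrowly (adjusted p = 0.0477 by edgeR). Its call was lost in 11 of 16 alternatives, among them DESeq2 (adjusted p = 0.232) and the fits without any one of the libraries (0.0874 without untreated replicate 1, 0.145 without untreated replicate 2, 0.231 without BML-210 replicate 1 and 0.125 without BML-210 replicate 2), in a range of 0.0216 to 0.232. In the list of hemidesmosome genes, tetraspanins and other integrin partners, 8 of 15 tested genes fell and 3 rose (73.3% called, median -0.26). The tetraspanin genes Tspan9 (-0.77) and Cd9 (-0.54) and the basigin gene Bsg (-0.50) fell, while the integrin-associated Cd47 (0.41) and the CD98 heavy chain gene Slc3a2 (0.22) rose.

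Other ligands of these receptors were counted in the same way. In the list of collagen IV and other basement membrane genes, 14 of 24 were tested, 6 fell and 3 rose (64.3% called, median -0.14). Col4a1 rose from 434 to 533 CPM (log2 change 0.30) and Fbln2 by 0.28 on the log2 scale. Named after its values were seen, the other abundant collagen IV gene Col4a2 was at 251 against 254 CPM. It did not pass (log2 change 0.02, adjusted p = 0.755 by edgeR), so the rise was that of 1 chain. Tinagl1 (-0.52) and the netrin gene Ntn4, from 4.35 to 0.439 CPM (-3.28), fell. Ntn4 reached the count minimum only in the untreated group. A further list held RGD and matricellular ligands together with the cell-surface proteins of Icam1, Vcam1, Madcam1 and Cdh1. Of its 20 genes, 10 were tested, 4 rose and 2 fell (60.0% called, median 0.60). The integrin ligand genes Icam1 (0.70) and Tnc (0.79) rose, and Mfge8 (-0.81) and Ccn1 (-0.84) fell. Named after their values were seen, the fibronectin gene Fn1 had 2 counts over the 4 libraries, the vitronectin gene Vtn 1 and the thrombospondin gene Thbs1 1, beside the 296 and 355 CPM of the receptor chains Itga5 and Itgav in the untreated mean.

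Among genes that modify the members, the share called was near the 46.4% of all tested genes for the dystroglycan and heparan sulfate lists. It was above that for the sheddases and proteases. Of 18 tested genes of the dystroglycan complex and its glycosylation, 6 fell and 2 rose (44.4% called, median -0.08), or 4 rose with library size as the only scaling. The dystrobrevin genes Dtna (-0.87) and Dtnb (-0.43) fell, and the glycosyltransferase gene Rxylt1 (0.55) and the sarcoglycan gene Sgcd (0.64) rose. Of 17 tested genes of heparan sulfate synthesis and modification, 5 fell and 2 rose (41.2% called, median -0.07). Ndst1 (-0.29), B4galt7 (-0.48) and Ext2 (-0.23) were lower, and B3galt6 (0.59) and Sulf2 (0.88) were higher. Without BML-210 replicate 2 the rise of Sulf2 was not called (adjusted p = 0.0593 by edgeR, with a range of 0.000405 to 0.0593 over 16 alternatives), and the list then had 3 lower and 1 higher. It also had 3 lower without untreated replicate 2 and in DESeq2. Of 16 tested sheddase, matrix protease and hyaluronan genes, 9 fell and 3 rose (75.0% called, median -0.14). The gelatinase gene Mmp9 rose from 45.8 to 116 CPM (log2 change 1.33), while the urokinase gene Plau (-1.19), Adam9 (-0.44) and the hyaluronidase gene Hyal1 (-0.99) fell.

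Exons of 16 of the 47 members, 12 of them tested, share bases with another gene's exon, and the rule for counting such reads is not stated in the labels. The overlapping genes held few counts where the falls and rises were largest: 32 counts for the partner of Ddr2 against its 21839, 26 for that of Itga7 against 1170, 16 for that of Nid1 against 23272 and 0 for that of Itgav. The partner of Lamc3 held 7 counts against 58, and that of Cd151 held 176 against 2699. Partners of low members held more: 6260 counts for that of Nid2 against 4 and 64 for that of Itga4 against 3. For Itga10 it was 15 against 78. Some of the other named genes overlap too: Hyal1 shares bases with Hyal3 and Naa80 on its own strand. Vcl, Lims2, Actn4, Col4a1, Cd9 and Sulf2 are among those that share bases with a gene on the opposite strand. How far this affects their counts was not examined. If reads in shared bases were dropped, a partner's count does not show how many the member lost.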

How the data were processed

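Total RNA (TRIzol, miRNeasy) went into KAPA HyperPrep libraries read as paired ends on a NovaSeq, per the labels' protocols. The authors deposited raw read counts per gene with gene coordinates and exonic length, per the file headers. STAR 2.5, Subread 1.5.1 with featureCounts, edgeR 3.20.8 and build mm10 are named in the submitters' processing notes. Strand and overlap settings are not stated there.

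The 4 count columns were matched to samples by library name. Genes were kept by filterByExpr (14455 of 56350), scaled by TMM and compared with edgeR 4.0.16 in R 4.3.3 (glmQLFit with robust=TRUE, glmQLFTest, group alone, 2 residual degrees of freedom), with Benjamini-Hochberg adjustment over all tested genes and a threshold of 0.05. The SE divides the absolute log2 change by the root of F. CPM use the TMM-scaled library size, and 3 counts equal 0.183 to 0.227 CPM in single libraries, a floor for counting error only, since reads carry no molecular identifiers. CPM per kilobase divide CPM by the deposited length and serve to compare genes. Chi-square over its degrees of freedom was 2.89 and 1.81 between replicates, above sampling noise. The spread beyond that noise was small, with a biological coefficient of variation of 2.49% in edgeR. Neither value can say whether the libraries came from separate cultures. Each library was treated as 1 sample. Start and end of all 47 members matched GENCODE M21. The fit was tested on counts simulated from the means and spread of these same libraries. That test cannot show whether their spread is technical.

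The members and gene lists were chosen with earlier results of these data known. Every tested member is named but 1, which, like 1 gene of another list, is counted but not reported here by name. Called members averaging 5 CPM or more with an absolute log2 change of at least 0.3, and the most abundant member of each role per kilobase, are given in all 4 libraries. From each other list, up to 4 called genes with the smallest adjusted p and up to 2 that go against it are named. Alternatives were scaling by RLE, by upper quartile or by library size alone, other filters, a block for the replicate number, leaving out each library, leaving out genes over 1% of a library, a trend over gene length removed, a threshold of 0.01, DESeq2 1.42.0, limma-voom (limma 3.58.1) and edgeR's likelihood ratio test.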

Additional observations from a re-analysis of the deposited data

How the results depend on the processing

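Over 16 alternatives, no direction of a called member or of another named and tested gene reversed, Col4a2 aside, which was not followed over them. Of the 22 called members, 12 of 15 lower and 4 of 7 higher kept their call in every alternative. The 6 that did not were Itga6, Sdc3, Lamc3, Hspg2, Ddr1 and Sdc4. Among 574 values of members, 16 lost a call and 4 gained one, and among 623 of 39 other named genes 13 lost one (11 of Ilk, 1 each of Sulf2 and Adgre1). DESeq2 called fewer genes, 2205 higher and 2130 lower against 3312 and 3402, but 12 members lower and 5 higher. Leaving out single libraries gave 0 to 1 integrin genes higher, 1 to 2 laminin genes lower, and medians of -0.18 to -0.12 for members, -0.23 to -0.15 for receptors and -0.41 to -0.29 for integrins, in each case farthest from the reported value without BML-210 replicate 1, except for the laminin count, which was 1 without untreated replicate 1. The ligand median ran from -0.15 to 0.01 and the laminin median from -0.29 to 0.01, both with a change of sign. Fewer laminin genes were also lower, 1, in DESeq2 and among genes averaging 1 CPM or more, where the laminin median became 0.0247 over the 7 genes left. Without a filter on low counts, which adds 11 members with 3 to 17 counts, the medians were -0.0873 for members, -0.0978 for receptors and -0.166 for integrins. With the replicate number as a block, 15 members were lower and 7 higher, as without it, and 3385 and 3462 of all genes higher and lower. The correlation between groups of the differences between same-numbered libraries was 0.02. Each group gives only 1 such difference, so this cannot say whether same-numbered libraries were paired. With 2 libraries a group and members down to 3 counts, small changes of low genes were not detectable at this depth.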
